A study of Mus musculus with 14 samples.

Results

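Egr1, Egr2, Ier2, Ier3, Dusp1, Dusp2, Zfp36, Nr4a1, Klf4 and Klf6 are immediate-early genes that do not encode AP-1 subunits. These 10 genes were chosen by symbol, with earlier results of these data known. Counts over them, and over the other gene lists below, are therefore descriptions and not tests. All 10 were found among the 12924 genes of both deposited tables, with a value in each of 14 libraries. The mice were p110g-/- (PI3K gamma null, made so by loss of Pik3cg) or wild type (WT), both on C57BL/6, and carried Lewis lung carcinoma (LLC) tumors in the flank, taken on day 14 after implantation. LLC is a mouse lung tumor line, and the labels name a genotype for the host mice only. CD11b+Gr1- cells, named tumor-associated macrophages (TAM) in the labels, were sorted by flow cytometry from suspensions of the tumors and gave 4 p110g-/- and 4 WT libraries. Pieces of whole tumor, extracted without sorting, gave 3 p110g-/- and 3 WT libraries. The labels do not say which bases of Pik3cg are missing, nor whether each library came from its own animal. All p-values therefore measure spread among these libraries only, and that spread may be technical.

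Immediate-early genes are switched on within minutes of a stimulus by transcription factors that are already in the cell, and need no new protein for it. Serum response factor and its partners on the CArG box, and CREB on the cAMP response element, are the best known of these factors, and the resulting mRNAs are short-lived. In macrophages the response follows growth factors, cytokines and bacterial products. Its members include transcription factors (Egr1, Egr2, Nr4a1, Klf4, Klf6), phosphatases that switch off MAP kinases (Dusp1, Dusp2) and Zfp36, or tristetraprolin, which marks inflammatory mRNAs for decay. PI3K gamma is a lipid kinase of leukocytes that acts below G protein-coupled receptors.

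Pik3cg itself had 2203, 2211, 1210 and 1401 normalized counts in p110g-/- TAM libraries 1 to 4 and 3745, 4477, 3070 and 2748 in WT TAM. All p110g-/- TAM lay below all WT TAM, and the same held in whole tumors, at 242 to 417 in p110g-/- and 487 to 616 in WT. Each TAM library totaled 33248294 to 38153438 normalized counts and each tumor library 25883561 to 27586429, from an estimated 19.7 to 44.6 M reads. Macrophage marker genes (Csf1r, Cd68, C1qa, Cd14 and others, 11 measured) summed to 9760 to 13381 CPM (counts per M of the library's total) in p110g-/- TAM, 10302 to 12998 in WT TAM and 2038 to 3332 in tumors. In TAM 6 of the 11 had a log2 fold change of p110g-/- over WT below 0 and 5 above (median −0.10). Cd14 was among the 5, at 1.81. The mitochondrial share set TAM libraries 1 and 2 apart from 3 and 4. It was 2.73%, 3.21%, 9.01% and 14.4% in p110g-/- TAM libraries 1 to 4 and 2.51%, 3.06%, 7.70% and 9.59% in WT TAM, against 2.49% to 3.32% in tumors. Fibroblast markers (10 genes) followed a similar order, at 22.0, 256, 1210 and 798 CPM in p110g-/- TAM and 76.3, 784, 1444 and 1578 in WT TAM. Carcinoma markers (4 measured) summed to 66.2, 124, 138 and 120 CPM in p110g-/- TAM and 76.5, 72.8, 122 and 117 in WT TAM. Among them Krt8 had 46, 197, 1569 and 1194 normalized counts in p110g-/- TAM and 76, 499, 1573 and 1648 in WT TAM. Cdh1 did not follow that order, at 2107, 3774, 1801 and 2294 and at 2453, 1428, 1177 and 1008. Neutrophil markers summed to 384 to 593 CPM in p110g-/- TAM and 274 to 510 in WT TAM. Among them Mmp9 had 8331 to 17798 normalized counts in p110g-/- TAM and 3997 to 14946 in WT TAM. S100a8 had only 101 to 266 and 31 to 232, against 1690 to 3117 in p110g-/- tumors and 1953 to 2802 in WT tumors. T cell markers summed to 3.17 to 6.95 CPM over all TAM. These shares moved with some of the results below, and their part in them was not tested.

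In TAM, all 10 genes had a log2 fold change above 0 for p110g-/- over WT, with a median of 0.59. Over all 12475 genes tested the median was −0.01 and 46.8% were above 0. None of the 10 passed an adjusted p of 0.05 in limma without pairing, a test that called 0.112% of all genes, and 4 of the 10 had an unadjusted p below 0.05, as 5.87% of all genes did. Same-numbered TAM libraries deviated together, and with the number as a block Egr1, Ier2, Dusp1 and Zfp36 rose in p110g-/- TAM. That fit called 1.01% of all genes higher. These calls depended on which pairs were included: without both libraries numbered 1 the block fit called 6 of the 10, without those numbered 2 Zfp36 alone, without those numbered 4 Egr1 alone, and without those numbered 3 none. Egr1, Ier2 and Dusp1 were also the 3 of the 10 whose p110g-/- values all lay above all WT values, as 2.37% of the genes tested did.

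**Figure D1:**
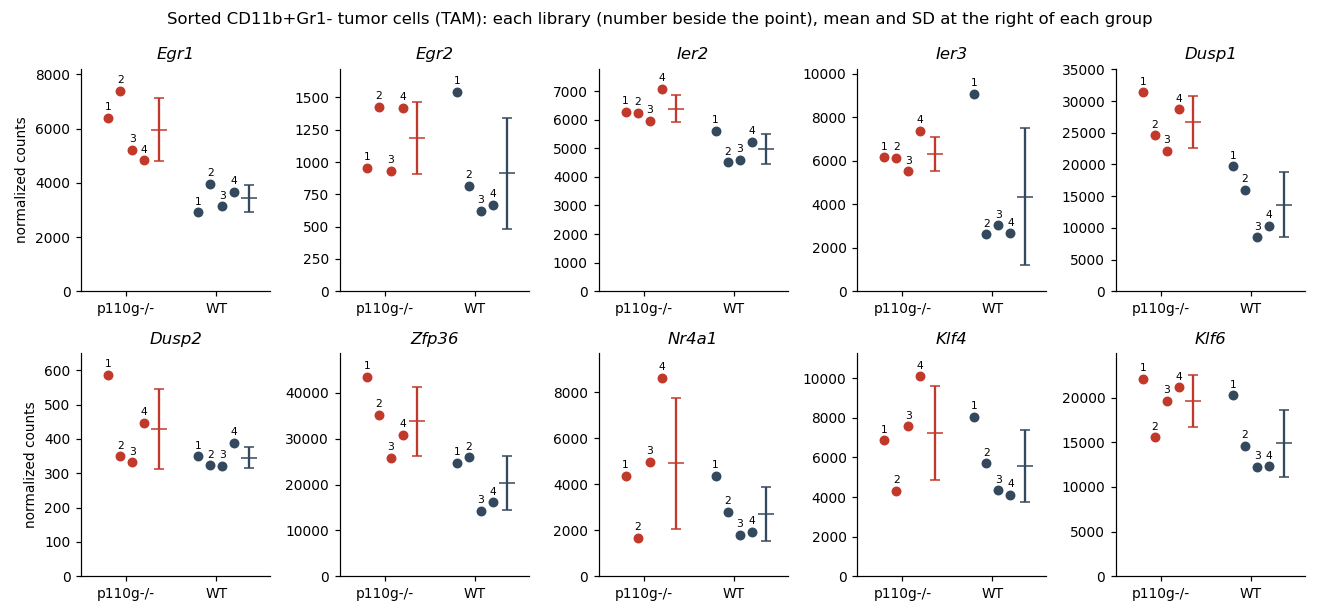
Normalized counts (y axis, from 0) of each of the 10 genes in p110g-/- and WT TAM, with 1 point per library, its number beside it, and the mean and SD at the right of each group. The groups are apart for Egr1, Ier2 and Dusp1, and Zfp36 overlaps by 1 library of each genotype (25784 in p110g-/- and 25922 in WT).

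Egr1, a zinc finger transcription factor induced through the ERK pathway, had 6392, 7384, 5222 and 4831 normalized counts in p110g-/- TAM libraries 1 to 4, against 2915, 3975, 3134 and 3670 in WT TAM. The lowest p110g-/- library lay above the highest WT library. The means were 5957 ± 1160 and 3424 ± 486 (SD, n = 4 each), a log2 fold change of 0.79 (SE 0.16, adjusted p = 0.184, or 0.0213 with the replicate block). Egr2, a relative of Egr1 that is required for nerve myelination, had 956, 1430, 934 and 1422 in p110g-/- TAM and 1543, 815, 624 and 667 in WT TAM. WT library 1 was the highest of the 8, and the other 3 WT libraries lay below all p110g-/- libraries. The log2 fold change was 0.45 (SE 0.30, adjusted p = 0.999).

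Nr4a1, an orphan nuclear receptor also called Nur77, spread most widely of the 10 over p110g-/- TAM. It had 4379, 1670, 4972 and 8619 in p110g-/- TAM and 4354, 2789, 1795 and 1935 in WT TAM. Libraries 1 were nearly equal, library 2 was lower in p110g-/-, and libraries 3 and 4 were higher in p110g-/-. The coefficient of variation was 58.3% over p110g-/- TAM and 43.3% over WT TAM, and the log2 fold change was 0.72 (SE 0.49, adjusted p = 0.999).

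Klf4, a zinc finger factor of monocyte differentiation and of the skin and gut lining, had 6857, 4326, 7569 and 10103 normalized counts in p110g-/- TAM, against 8056, 5700, 4330 and 4117 in WT TAM. Its order over the libraries was like that of Nr4a1, with p110g-/- lower in numbers 1 and 2 and higher in numbers 3 and 4. The log2 fold change was 0.37 (SE 0.29, adjusted p = 0.999). Klf6, a widely expressed member of the same family, had 22150, 15570, 19678 and 21179 in p110g-/- TAM and 20282, 14614, 12288 and 12329 in WT TAM. It was higher in p110g-/- in all 4 numbers, by little in 1 and 2, at a log2 fold change of 0.42 (SE 0.19, adjusted p = 0.869).

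Ier2, a nuclear protein of growth-factor-stimulated cells, had 6273, 6239, 5966 and 7080 in p110g-/- TAM and 5610, 4505, 4587 and 5222 in WT TAM. It varied least of the 10 between p110g-/- TAM libraries, at a coefficient of variation of 7.52%. Its log2 fold change was 0.36 (SE 0.10, adjusted p = 0.392, or 0.0475 with the block). Ier3, also called IEX-1, a stress-induced protein that acts on cell survival, had 6171, 6137, 5520 and 7379 in p110g-/- TAM and 9095, 2615, 3042 and 2670 in WT TAM. WT library 1 was the highest of all and the other 3 WT libraries the lowest. The log2 fold change was 0.75 (SE 0.38, adjusted p = 0.972). Without WT library 1 it was 1.18 (adjusted p = 0.0141), which made Ier3 a gene that rose.

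Dusp1, or MKP-1, which dephosphorylates p38 and JNK in activated macrophages, had 31376, 24569, 22135 and 28708 in p110g-/- TAM, against 19680, 15995, 8534 and 10281 in WT TAM. The groups did not overlap, and WT libraries 3 and 4 were the lowest of the 8. The means were 26697 ± 4134 in p110g-/- and 13623 ± 5144 in WT (SD, n = 4 each). This was the largest log2 fold change of the 10 genes, 1.04 (SE 0.26, adjusted p = 0.360, or 0.0279 with the block). Dusp2, or PAC-1, a phosphatase of the same family found in blood cells, had 587, 349, 332 and 446 in p110g-/- TAM and 349, 323, 322 and 388 in WT TAM. Apart from p110g-/- library 1 its values lay close together, and it had the smallest log2 fold change of the 10, at 0.28 (SE 0.19, adjusted p = 0.999).

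Zfp36 had 43543, 35150, 25784 and 30865 in p110g-/- TAM and 24686, 25922, 14287 and 16155 in WT TAM. Within every number the p110g-/- library was higher. The means were 33836 ± 7519 in p110g-/- and 20263 ± 5893 in WT (SD, n = 4 each), a log2 fold change of 0.76 (SE 0.24, adjusted p = 0.554). The block gave Zfp36 the smallest adjusted p of the 10 genes, 0.0120.

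RefSeq promoters, each 250 bases before to 50 bases after a start site, were at hand for 8 of the 10 genes, all but Egr1 and Ier2. They were searched on both strands for the CArG box (by its name, CC, then 6 bases that are A or T, then GG), the full cAMP response element TGACGTCA, its shorter form TGACG (which also lies within TGACGTCA), the AP-1 site TGANTCA and the GC box GGGCGG. The 4 shown hold a CArG box, TGACGTCA or TGACG, which are in capitals (CGTCA is TGACG on the other strand). Dusp2 and Klf4, not shown, also hold TGACG. Coordinates are those of GRCm38.p6, a later build than the mm9 of the processing notes. Egr2 is shown at the third of its 5 start sites, chr10:67537619-67537918 (+ strand), Zfp36 at chr7:28379179-28379478 (− strand), Dusp1 at chr17:26508423-26508722 (− strand) and Nr4a1 at chr15:101266596-101266895 (+ strand).
Egr2: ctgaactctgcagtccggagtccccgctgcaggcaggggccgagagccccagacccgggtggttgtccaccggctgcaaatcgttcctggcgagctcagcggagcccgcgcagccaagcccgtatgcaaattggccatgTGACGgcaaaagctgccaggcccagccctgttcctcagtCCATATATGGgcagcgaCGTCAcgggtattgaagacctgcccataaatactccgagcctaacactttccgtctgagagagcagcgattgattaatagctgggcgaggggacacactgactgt
Zfp36: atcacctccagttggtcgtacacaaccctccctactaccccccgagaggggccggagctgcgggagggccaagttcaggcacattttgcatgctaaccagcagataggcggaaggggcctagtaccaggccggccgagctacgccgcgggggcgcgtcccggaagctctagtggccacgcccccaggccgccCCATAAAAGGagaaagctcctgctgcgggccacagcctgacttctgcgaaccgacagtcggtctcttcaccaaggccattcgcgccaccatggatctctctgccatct
Dusp1: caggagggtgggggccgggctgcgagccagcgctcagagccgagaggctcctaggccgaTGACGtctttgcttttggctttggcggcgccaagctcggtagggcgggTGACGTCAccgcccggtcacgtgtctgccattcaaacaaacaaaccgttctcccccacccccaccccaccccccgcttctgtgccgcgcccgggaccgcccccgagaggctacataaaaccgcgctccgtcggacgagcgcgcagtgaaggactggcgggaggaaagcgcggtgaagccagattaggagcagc
Nr4a1: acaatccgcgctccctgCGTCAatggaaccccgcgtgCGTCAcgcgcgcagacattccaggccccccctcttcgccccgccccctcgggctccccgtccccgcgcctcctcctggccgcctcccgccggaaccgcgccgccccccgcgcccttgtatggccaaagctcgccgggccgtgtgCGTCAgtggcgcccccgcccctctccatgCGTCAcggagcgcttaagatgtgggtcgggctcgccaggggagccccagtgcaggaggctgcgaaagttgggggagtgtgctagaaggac

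A CArG box was found in 2 of the 8 genes, against 1.63% of 32851 promoter windows of all genes. In the windows shown it starts at base −72 from the start site in Egr2 and at −58 in Zfp36, and the second start site of Egr2, not shown, has another. TGACGTCA was found in Dusp1 alone of the 8, at −143, against 1.79% of windows, and TGACG in 5 of 8 genes, 4 times in Nr4a1, against 20.8%. The AP-1 letters TGANTCA were in none of the 8 genes' windows (7.81% of all windows), and GGGCGG was in all 8 genes (35.7%). A gene was counted when any of its windows held the letters, and Egr2 has 5 windows where the other 7 genes have 1 each. A match says only that these letters are there, and positions are counted back from the start site.

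The genotype difference was not the same in each pair of TAM libraries. For Nr4a1 the log2 difference of p110g-/- over WT in numbers 1 to 4 was 0.01, −0.74, 1.47 and 2.15. Klf4 gave −0.23, −0.40, 0.81 and 1.29, and Klf6 gave 0.13, 0.09, 0.68 and 0.78. Dusp1 gave 0.67, 0.62, 1.37 and 1.48, so it was higher in p110g-/- in all 4 pairs and by more in numbers 3 and 4. Egr1 ran the other way, at 1.13, 0.89, 0.74 and 0.40. Zfp36 was nearly level, at 0.82, 0.44, 0.85 and 0.93. Higher in all 4 pairs were 6 of the 10 genes (Egr1, Ier2, Dusp1, Dusp2, Zfp36 and Klf6), as were 11.2% of all genes.

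**Figure D2:**
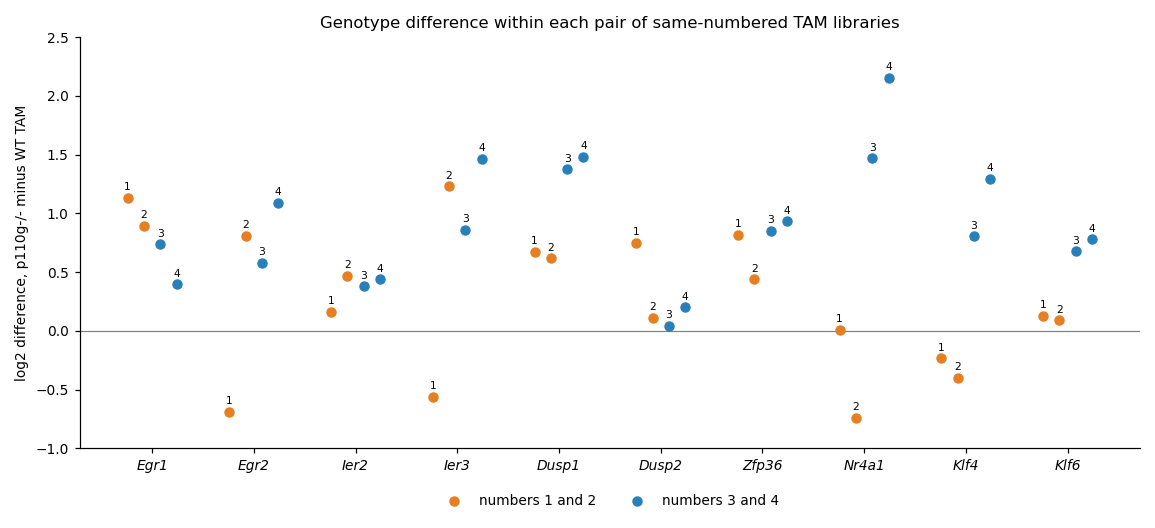
Log2 difference of p110g-/- over WT (y axis) between TAM libraries of the same number, for each of the 10 genes, with the number above each point and numbers 1 and 2 in a different color from 3 and 4. For Nr4a1 and Klf4 the points of numbers 3 and 4 lie at 0.81 or more and those of 1 and 2 at 0.01 or less, and for Egr1 and Zfp36 all 4 points lie above 0.

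Fitted on numbers 3 and 4 alone (2 p110g-/- and 2 WT libraries), 9 of the 10 genes rose, all but Dusp2, with a median of 0.86. That fit called 6.1% of all genes higher. Nr4a1 had a log2 fold change of 1.81 (SE 0.21, adjusted p = 0.00101), Dusp1 1.43 (SE 0.13, adjusted p = 0.000344) and Klf4 1.05 (SE 0.12, adjusted p = 0.00101). On numbers 1 and 2 alone limma called 0 of the 10 and 0 of all genes, and 3 of the 10 had an unadjusted p below 0.05 (1.71% of all genes). The median of the 10 was 0.33 there, and Nr4a1 (−0.37) and Klf4 (−0.32) were below 0. With a term for numbers 1 and 2 against 3 and 4, Zfp36 alone rose (adjusted p = 0.0390), beside 0.176% of all genes called higher.

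Whether the genotype effect itself differed between numbers 3 and 4 and numbers 1 and 2 was tested in a comparison chosen after these values were seen. No gene of 12475 passed, 0 of the 10 among them, and 332 genes (2.66%) had an unadjusted p below 0.05, 3 of the 10 among them. The difference of effects was 2.18 for Nr4a1 (SE 0.69, unadjusted p = 0.0180), 1.37 for Klf4 (SE 0.38, unadjusted p = 0.0104) and 0.78 for Dusp1 (SE 0.28, unadjusted p = 0.0294). WT TAM held less in numbers 3 and 4 than in 1 and 2 for 9 of the 10 genes, and p110g-/- TAM for 5 of the 10. The share over all genes was not counted. Several of these log2 differences were near 0, at −0.005 for Egr1 and −0.04 for Ier2 in WT TAM. In p110g-/- TAM Egr2 (−0.02), Ier3 (0.05) and Ier2 (0.06) were near 0. Averaged over the 10 genes, each as its log2 deviation from its mean over the 8 libraries, p110g-/- TAM stood at 0.41, 0.09, 0.16 and 0.52 in numbers 1 to 4 and WT TAM at 0.19, −0.26, −0.61 and −0.51. WT library 1 was thus the WT library nearest to the p110g-/- ones, and WT libraries 3 and 4, with mitochondrial shares of 7.70% and 9.59%, were the lowest. The p110g-/- libraries 3 and 4, with mitochondrial shares of 9.01% and 14.4%, stood at 0.16 and 0.52, and 0.52 was the highest of the 8. The part of the mitochondrial, fibroblast and carcinoma marker shares in this split was not tested.

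**Figure D3:**
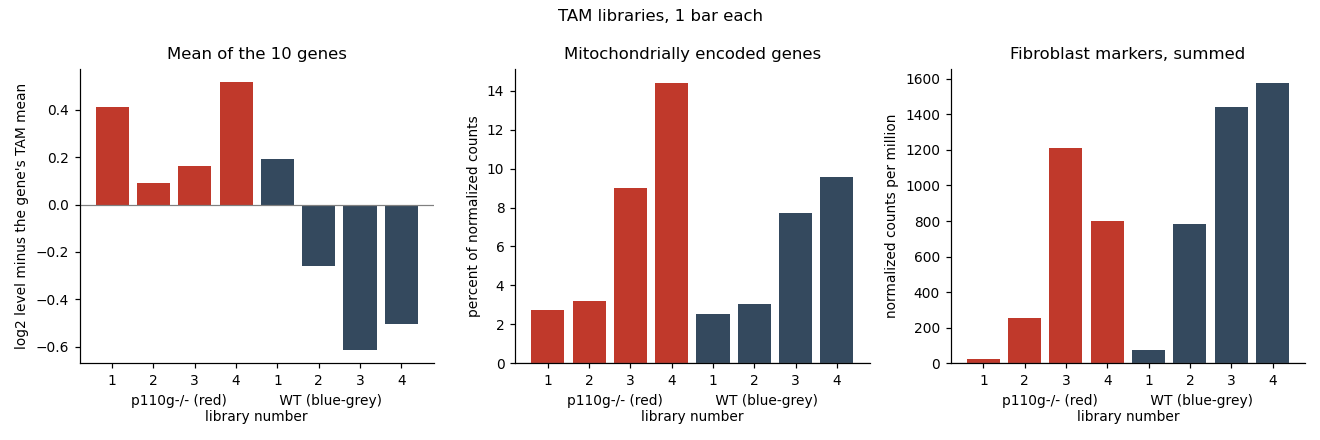
Profile of the 10 genes over the 8 TAM libraries beside the mitochondrial share (percent of normalized counts) and the fibroblast marker sum (CPM), with 1 bar per library, p110g-/- in red and WT in blue-grey. The profile is the mean log2 deviation of the 10 genes from their TAM means, and its lowest values, −0.61 and −0.51, are those of WT libraries 3 and 4.

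In whole tumors the 10 genes showed no shared rise. Log2 fold changes of p110g-/- over WT were below 0 for 8 of the 10, with a median of −0.10 (0.01 over all 12717 genes tested). limma called 0 of the 10, against 4.35% of all genes, and 1 of the 10, Nr4a1, had an unadjusted p below 0.05, against 26.2% of all genes. Nr4a1 was also the only one of the 10 whose groups did not overlap, in the direction of lower p110g-/- values, as 15.4% of all genes did. In bulk RNA, fewer cells of a type and less RNA per cell cannot be told apart.

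Nr4a1 had 2849, 2598 and 3035 normalized counts in p110g-/- tumors 1 to 3, against 3107, 4698 and 5806 in WT tumors. WT tumor 1 lay just above the p110g-/- tumors and the other WT tumors well above them. The log2 fold change was −0.64 (SE 0.20, adjusted p = 0.102), and without WT tumor 1 it was −0.89 (adjusted p = 0.0279). Egr2 had 525, 504 and 447 in p110g-/- tumors and 476, 767 and 1172 in WT tumors, with WT tumor 1 among the p110g-/- values. Its log2 fold change was −0.62 (SE 0.28, adjusted p = 0.208).

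Klf4 had 1007, 1060 and 1228 in p110g-/- tumors and 1044, 1390 and 1923 in WT tumors, at a log2 fold change of −0.36 (SE 0.20, adjusted p = 0.286). Ier2 had 2377, 1555 and 1615 in p110g-/- tumors and 1918, 2597 and 2713 in WT tumors, at −0.39 (SE 0.18, adjusted p = 0.222). For Ier2 the odd library was p110g-/- tumor 1, and without it the value was −0.59 (adjusted p = 0.0366). The WT tumor numbered 1 was the lowest WT tumor for 9 of the 10 genes and shared the lowest place for Dusp2.

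Egr1 had 6376, 3161 and 4080 in p110g-/- tumors, against 3077, 5953 and 5277 in WT tumors, and the ranges nearly coincided. Dusp1 had 13177, 9959 and 12927 in p110g-/- tumors and 9896, 13297 and 15995 in WT tumors. Zfp36 had 14846, 12326 and 14962 in p110g-/- tumors and 9915, 15241 and 18675 in WT tumors. The genes that rose in TAM with the block thus had log2 fold changes near 0 in tumors, other than Ier2, with −0.08 (95% interval −0.77 to 0.62) for Egr1, −0.10 (−0.51 to 0.31) for Dusp1 and −0.01 (−0.50 to 0.47) for Zfp36. The remaining members, Ier3, Dusp2 and Klf6, lay between −0.10 and 0.12, with SEs of 0.10 to 0.22.

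**Figure D4:**
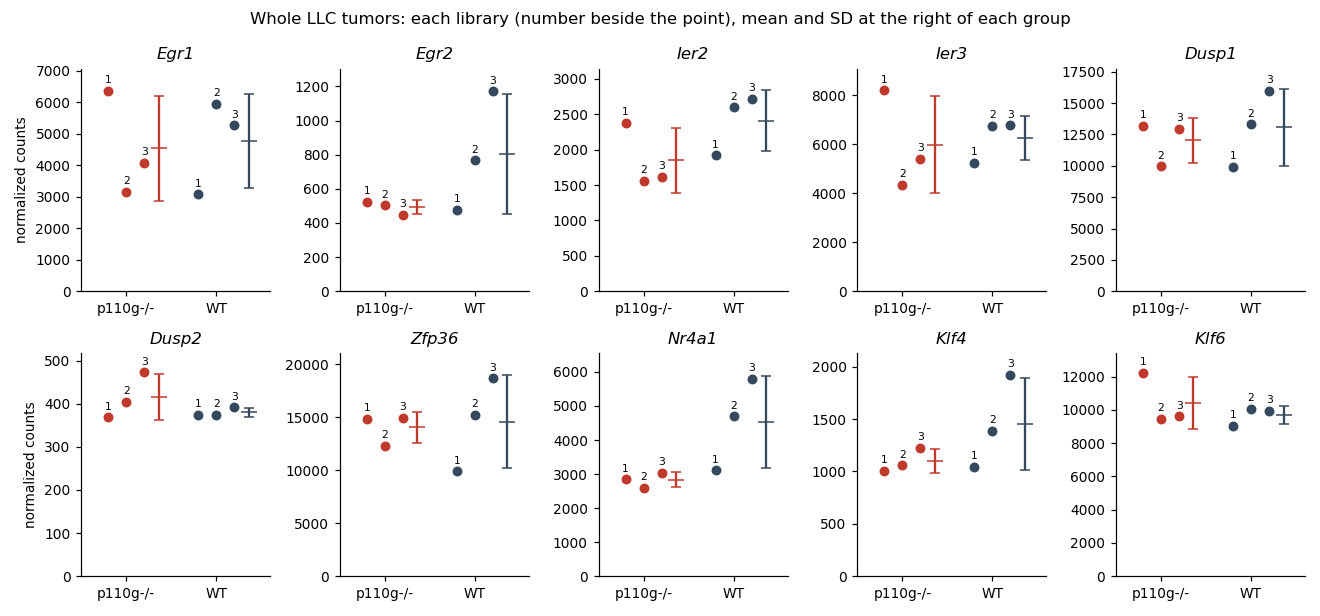
Normalized counts (y axis, from 0) of each of the 10 genes in p110g-/- and WT whole tumors, with 1 point per library, its number beside it, and the mean and SD at the right of each group. The groups are apart for Nr4a1 alone, whose p110g-/- tumors reach 3035 and whose WT tumors start at 3107.

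T cell markers were higher in the p110g-/- tumors, at 17.2 to 22.4 CPM against 4.25 to 10.0 in WT tumors. Of the 8 tested 4 rose (median log2 fold change 1.41), as did 286 of 12717 genes. Carcinoma markers were lower, at 358 to 401 CPM in p110g-/- tumors against 512 to 546 in WT tumors. Among them Krt8 fell by 0.63 on the log2 scale (adjusted p = 0.00818) and Krt18 by 0.45 (adjusted p = 0.0164). Endothelial markers were also higher in every p110g-/- tumor, at 62.9 to 74.7 CPM against 35.7 to 59.1 in WT tumors, with 8 of 8 above 0 (median log2 fold change 0.60) and 0 past the test. Neutrophil markers summed to 588 to 718 CPM in p110g-/- tumors and 409 to 664 in WT tumors, with 7 of 8 above 0 (median 0.49) and 0 past the test. The part of the cell makeup in the values of the 10 genes in tumors was not tested.

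The genotype effect in TAM minus the effect in tumors was above 0 for all 10 genes, with a median of 0.81 on the log2 scale, against −0.02 over all 12486 genes tested. limma called 0 of the 10, against 0.144% of all genes, and 4 of the 10 had an unadjusted p below 0.05 (Egr1, Egr2, Ier2 and Dusp1), against 6.5% of all genes. Dusp1 differed by 1.14 (SE 0.38, 95% interval 0.32 to 1.96, adjusted p = 0.472) and Ier2 by 0.75 (SE 0.22, 95% interval 0.27 to 1.24, adjusted p = 0.359). Nr4a1 had the largest difference, 1.36, with an interval from −0.05 to 2.78. A difference between the 2 kinds of sample in the genotype effect was therefore not shown for any of the 10 after adjustment, with or without the block.

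**Figure D5:**
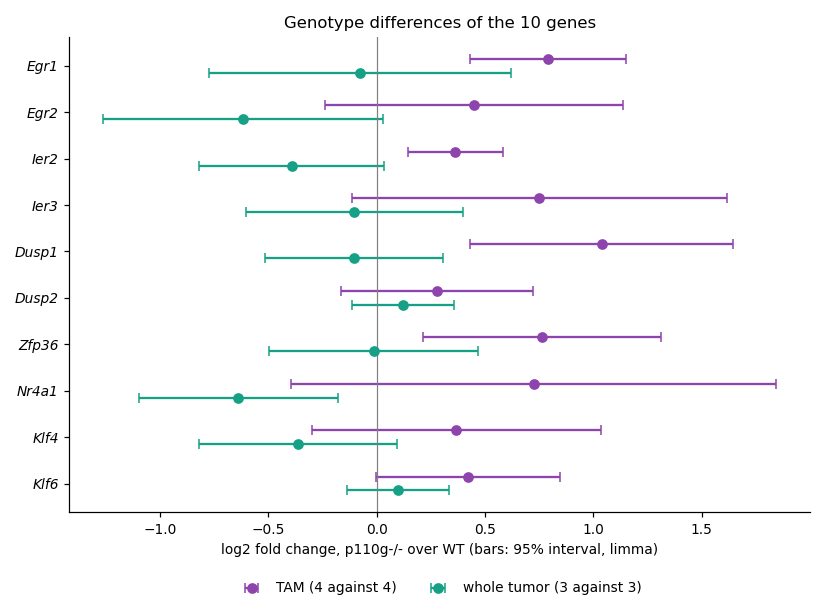
Log2 fold change of p110g-/- over WT (x axis) for each of the 10 genes in TAM and in whole tumors, as points with 95% intervals from limma without the block. All 10 TAM estimates lie above 0, with a median of 0.59, and 8 of the 10 tumor estimates lie below it.

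As CPM, the 10 genes were not all more abundant in the sorted cells than in tumor tissue. Klf4 averaged 204 ± 57.5 CPM in p110g-/- TAM and 164 ± 51.6 in WT TAM, against 41.4 ± 4.69 in p110g-/- tumors and 53.0 ± 15.8 in WT tumors (SD, n = 4 TAM and 3 tumors a genotype). Ier2 averaged 182 ± 6.30 in p110g-/- TAM and 147 ± 13.4 in WT TAM, against 69.4 ± 15.5 in p110g-/- tumors and 88.0 ± 15.4 in WT tumors. For these 2 genes every TAM library stood above every tumor library, as it did for 18.4% of genes.

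For the other 8 genes the TAM and tumor libraries overlapped. In WT the ratio of TAM to tumor ran from 0.48 for Nr4a1 to 1.24 for Klf6 among those 8, and in p110g-/- from 0.78 for Dusp2 to 1.84 for Zfp36. The tables were scaled separately, so no test was run across them. TAM also went through suspension and sorting where the tumor pieces did not, and cell type and handling cannot be told apart here. Heat-shock genes (11 genes, such as Hspa1a) summed to 5764 to 8113 CPM in p110g-/- TAM and 5719 to 7450 in WT TAM, against 10413 to 12788 in p110g-/- tumors and 11000 to 11074 in WT tumors, and none of the 11 passed in TAM or in tumors.

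Relatives of the 10 genes in the same families (21 measured, such as Egr3, Nr4a2, Nr4a3, Dusp5, Klf9 and Ier5) were above 0 in TAM for 16 of 21 (median log2 fold change 0.14), and 0 passed with or without the block (2.5% of all genes were called with it, in either direction). Nr4a3, a receptor of the same family as Nr4a1, had 243, 168, 726 and 1165 in p110g-/- TAM and 204, 119, 131 and 133 in WT TAM. As with Nr4a1, p110g-/- libraries 3 and 4 stood highest, at a log2 fold change of 1.58 (SE 0.58, adjusted p = 0.692). Dusp5, an ERK phosphatase, had 1116, 578, 1539 and 1672 in p110g-/- TAM and 960, 453, 566 and 550 in WT TAM (log2 fold change 0.90, SE 0.36, adjusted p = 0.769). In whole tumors 2 of the 21 fell, Ier5l by 0.58 (adjusted p = 0.0235) and Klf10, a TGF-beta-induced factor, by 0.27 (adjusted p = 0.0489, or 0.0637 with the block). Over all genes 267 of 12717 fell in tumors.

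AP-1 subunits and Atf3, which are induced together with the 10 genes in the textbook response, were above 0 in TAM for 9 of 9, with a median of 0.35. With the block 2 of the 9 rose, as did 1.01% of all genes. Fosb had 9287, 5120, 7762 and 9008 in p110g-/- TAM and 2334, 3301, 1213 and 1753 in WT TAM (log2 fold change 1.92, adjusted p = 0.101, or 0.0298 with the block), and Fos had a log2 fold change of 0.83 (adjusted p = 0.466, or 0.00854 with the block). Of 23 other early-response genes 19 were above 0 in TAM, with a median of 0.35, where 46.8% of all genes were above 0. With the block 2 of the 23 rose, against 1.01% of all genes. The 2 were Rgs1, a regulator of G protein signaling (log2 fold change 1.04, block adjusted p = 0.0235), and Ppp1r15a, or GADD34 (0.58, block adjusted p = 0.0274). In tumors 2 of the 23 also rose with the block, as did 439 of 12717 genes. Rgs1 had a log2 fold change of 0.23 there (adjusted p = 0.178, or 0.0469 with the block) and Id2 of 0.31 (adjusted p = 0.190, or 0.0426 with the block).

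Genes known to act above the response were counted next. Of 16 ligands and receptors tested in TAM, Cd14, the co-receptor for bacterial lipopolysaccharide, rose with the block (log2 fold change 1.81, adjusted p = 0.0621, or 0.0135 with the block), and it is also a macrophage marker. The block fit called 1.01% of all genes higher. Levels of Cd14 were 54199, 44362, 67571 and 68025 in p110g-/- TAM and 26774, 15278, 13844 and 12870 in WT TAM. No MAP kinase pathway gene of 18 and no transcription factor gene of 11 (Srf, Elk1, Creb1 and others) passed in TAM, with or without the block, and their median log2 fold changes were 0.03 and 0.06. In tumors Csf2ra, a receptor chain for GM-CSF, fell by 1.31 (adjusted p = 0.0227), and 0 of the kinases and 0 of the factors passed. Of the 16 ligands and receptors tested in TAM, 10 were above 0 and 6 below, Csf2ra among the 6. It had 9127, 8086, 8044 and 9320 in p110g-/- TAM and 21562, 13415, 11788 and 11273 in WT TAM. The log2 fold change was −0.70 (adjusted p = 0.441, or 0.0677 with the block).

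Inflammatory mRNAs that tristetraprolin is known to destabilize were tested because Zfp36 encodes that protein. Of 11 tested in TAM 8 were above 0 (median log2 fold change 0.70), and 3 rose with the block. Over all genes 46.8% were above 0 and 1.01% rose with the block. Cxcl2, a neutrophil chemokine, had 24433, 10302, 15143 and 15625 in p110g-/- TAM and 12963, 3105, 2472 and 3023 in WT TAM, with WT library 1 far above the other WT libraries (log2 fold change 1.91, adjusted p = 0.417, or 0.0172 with the block). Cxcl1, of the same family, had a log2 fold change of 1.55 (block adjusted p = 0.0470) and Ptgs2, or cyclooxygenase-2, 0.80 (block adjusted p = 0.0132). The other 3 of the 11 were below 0. Among them Ccl2 had 5941, 9377, 10571 and 10992 in p110g-/- TAM and 18260, 10294, 14054 and 15036 in WT TAM. Its log2 fold change was −0.65 (adjusted p = 0.663, or 0.199 with the block). Ier3, one of the 10 genes, is also on this list.

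Outside these 10 genes, the TAM profiles most like their mean were those of Cdk5rap1, Csrnp1, Btg2, Stk17b and Nfkbia. Likeness was the root mean square distance between log2 profiles over the 8 TAM libraries, over 10606 genes with a mean of at least 100 normalized counts. It was 0.06 for Cdk5rap1, 0.11 for Csrnp1 and Btg2, 0.12 for Stk17b and 0.13 for Nfkbia. Among the 10 genes Klf6 lay closest to their mean, at 0.12, and Nr4a1 farthest, at 0.53. Cdk5rap1 had 438, 352, 357 and 448 normalized counts in p110g-/- TAM and 398, 269, 233 and 234 in WT TAM, so its nearness to the mean profile came with a log2 fold change of 0.52 (adjusted p = 0.729, or 0.132 with the block).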

How the data were processed

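RNA was sequenced in 14 mouse libraries. Bowtie2, DESeq and mm9 are named, with no versions or order, per the submitters' processing notes. The sources used here do not give the counter, annotation, use of strand or normalization formula. The authors deposited 2 tables whose values are a score, read from the values as gene counts scaled by 1 factor per library and rounded to whole numbers, called normalized counts here. A further deposited value headed pp was not used. Estimated reads come from how often each whole number occurs in a library, by a step finder tested on simulated data (recovered within 1% in 14 of 14). On the real values its fit correlated at 0.58 to 0.96.

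From these values limma 3.58.1 (R 4.3.3) (prior on the spread fitted to the mean) was run on log2 of the normalized count plus 1, for genes reaching 10 in at least 4 TAM or 3 tumor libraries. The difference of effects between TAM and tumors asked for at least 3 libraries of each kind. The TAM fits on 2 numbers asked for at least 2 libraries, and the block fits without a pair for at least 3. Tests were two-sided, with Benjamini-Hochberg adjustment over all genes tested, and genes are said to rise or fall at an adjusted p below 0.05. On simulated data, 2-fold changes were recovered for 97% of changed genes in TAM, 93% in tumors and 52% for the difference of effects. The simulation gave every gene the same spread beyond counting noise and no differences by number, and low genes were not changed. Recovery in the real libraries may therefore be lower. In TAM without the block, Dusp1 at 1.04 (adjusted p = 0.360) and Pik3cg at −1.02 (adjusted p = 0.299) did not pass. Over 11281 genes the deviations of TAM libraries numbered 1 to 4 from their group means correlated at 0.857, 0.532, 0.853 and 0.762 between genotypes, so the numbers pair the TAM libraries by this rule, and block values stand beside results they change. The p110g-/- library 3 with WT library 4 (0.816) and p110g-/- library 4 with WT library 3 (0.789) were as alike. For numbers 3 and 4, pairs and a common set of libraries therefore cannot be told apart. The p110g-/- library 1 with WT library 2 (−0.094) and p110g-/- library 2 with WT library 1 (0.118) were not as alike. Mitochondrial genes (13) were taken by identifier. Named genes were the 10 members, Pik3cg, of each other list up to 3 with the smallest p per comparison, and the 5 nearest profiles. Members and lists were chosen with earlier results of these data known. The fit by numbers and the block fits without a pair were added after seeing the data. Alternatives were other scalings, pseudocounts, filters, designs and leaving out each library.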

Additional observations from a re-analysis of the deposited data

Results flagged for a closer look

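Ier3 in WT TAM was the only case, of the 10 genes in the TAM groups, where a library stood far from the rest of its group. WT library 1 held 9095 normalized counts, against 2615, 3042 and 2670 in the other WT libraries, so the gap to the next library was 0.934 of the whole range. Chance alone marks about 1 group in 20, and 20 groups were looked at. Leaving that library out turned the log2 fold change of 0.75 into 1.18 and brought the adjusted p to 0.0141. In p110g-/- TAM, Ier3 lay between 5520 and 7379.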

How the results depend on the processing

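In TAM, 143 of 160 alternative values for the 10 genes kept direction and call, as did 97 of 110 in tumors, 179 of 180 for the TAM minus tumor difference and 106 of 110 for the difference between numbers 3 and 4 and 1 and 2. In TAM 14 genes were called, and 0 of the 10. Quantile scaling gave 6 genes, the fit of all 14 libraries 88, and leaving out a library 3 to 40 genes and 0 to 1 of the 10 (39, 7, 6 and 5 genes without p110g-/- 1 to 4, and 40, 3, 5 and 6 without WT 1 to 4). The replicate block gave 312 genes and 4 of the 10 (78 to 611 genes and 0 to 6 of the 10 without both libraries of a number, which were 611, 78, 91 and 98 genes without numbers 1 to 4), and the term for numbers 55 genes and 1 of the 10. Numbers 3 and 4 alone gave 1428 genes and 9 of the 10, and numbers 1 and 2 alone 0 genes, with Nr4a1 at −0.37 and Klf4 at −0.32. In tumors, 553 genes were called. The fit of all 14 libraries gave 15 genes, and leaving out a library 29 to 2001 genes and 0 to 1 of the 10 (2001, 29 and 69 without p110g-/- 1 to 3, and 86, 31 and 155 without WT 1 to 3). Same-numbered tumors correlated at only 0.0676, 0.0889 and 0.200 over 11516 genes, so they share a number only, and the block gave 759 genes and 0 of the 10. Zfp36 was 0.042 in tumors with quantile scaling. Leaving out a library gave −0.37 to 0.15 for Egr1, −0.36 to 0.10 for Ier3, −0.29 to 0.056 for Dusp1, −0.27 to 0.19 for Zfp36 and −0.023 to 0.16 for Klf6. For the TAM minus tumor difference, 18 genes were called, 329 with the block, and 0 to 101 without a library, where Dusp2 was −0.0095 to 0.26. For the difference by numbers, 0 genes were called and 0 to 8 without a library, where Dusp2 was −0.68 to 0.067, Ier2 −0.065 to 0.25 and Ier3 −0.072 to 1.73. The cause of these changes was not tested. With 3 or 4 libraries a group, the wide intervals limit what can be said of Nr4a1, Ier3 and Egr2.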

Other observations

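The 10 genes together took 0.384%, 0.301%, 0.285% and 0.316% of all normalized counts in p110g-/- TAM libraries 1 to 4, and 0.281%, 0.231%, 0.159% and 0.169% in WT TAM. In tumors they took 0.228%, 0.175% and 0.203% in p110g-/- and 0.162%, 0.224% and 0.249% in WT. Crem, a cAMP-responsive relative of CREB, had 696, 618, 1832 and 1723 normalized counts in p110g-/- TAM, against 820, 426, 592 and 521 in WT TAM (log2 fold change 0.91, adjusted p = 0.852). Its p110g-/- libraries 3 and 4 stood highest, as those of Nr4a1 and Nr4a3 did.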
